A study of Mus musculus with 6 samples.

Results

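The genes described here are 34 genes that mark astrocytes, the star-shaped glia of the brain, and they were taken by the gene name that the array file gives each probe. All 34 were found, on 61 of 41174 probes, and 57 of these probes were bright enough to test. The 6 RNA samples came from the cerebral cortex of male mice, each read on its own Agilent array that reads Cy3-labelled copy RNA of the total RNA. The knock-out group held samples 53, 48 and 54, with the genotype label Cux2-/-. The control group held samples 15, 62 and 16: their titles call them WT, but as genotype they carry the label Cux2+/-, a conflict that the labels do not settle. Cux2 encodes a homeobox factor made by neurons of the upper cortical layers. Age, strain and the site of the mutation are not given in the sources used here. The tissue was not sorted by cell type, as far as the labels say, so each value is a mixture of neurons, glia and vessels, and fewer astrocytes and less RNA per astrocyte cannot be told apart.

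Astrocytes take up the glutamate and GABA that neurons release and turn glutamate into glutamine, which neurons use again. Their endfeet wrap blood vessels and carry channels for water and potassium, and gap junctions join them into networks. Many of their genes serve as markers in cortex because neurons, microglia and oligodendrocytes express them weakly. Some of the listed genes are less selective: Vim and Id3 are also made by vessel cells, Apoe by microglia, and Mt1 and Mt2 by most cells under metal or hormone stimulation.

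Values below are log2 of the background-subtracted spot signal minus the 75th percentile of the same array, so that 0 is the level of a fairly bright probe. A difference of 1 on this scale is a 2-fold change, and each difference is knock-out minus control. The brightest probe stands for a gene with several, and levels are not compared between probes. Significance was judged with limma over all 25507 tested probes, at an adjusted p under 0.05. The share of probes well above background lay between 58.5% and 68.1% on knock-out arrays and between 62.7% and 72.7% on control arrays. The targeted gene read -0.041, -0.045 and -0.0092 in the knock-outs, against -0.035, 0.27 and 0.032 in the controls by its brighter probe, which the array names Cutl2, a difference of -0.12 (95% interval -0.36 to 0.12, limma adjusted p = 0.838). A dimmer Cux2 probe, which the array names 1700051K22Rik, differed by 0.079 (95% interval -0.29 to 0.45, limma adjusted p = 0.947). Whether the mutation removes the bases these probes read is not given, so their signal checks nothing about the labels.

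In the knock-outs astrocyte RNA was close to control for most members, with a lean to lower values that no member carried past the threshold. Of the 34 genes 27 stood below control and 7 above, a share of 79.4% below, against 51.8% of all 17125 genes tested. The median difference was -0.084, against -0.0060 over all genes. No member passed, 0 of 34, where 0.128% of all genes did in limma, 0.0701% lower and 0.0584% higher. At an unadjusted p under 0.05 there were 5 members, against 8.27% of all genes. All 5 were lower, against 4.38% of all genes on that side, and 0 were higher, against 3.89%. These were Papss2, S100b, Gfap, Id3 and Cbs. In 8 members every knock-out lay below every control, against 7.25% of all genes, and in 0 members every knock-out lay above, against 6.38%. The 8 were the 5 just named with Slc1a2, Slc1a3 and Ttyh1. Papss2 passed the filter on dim probes only through the controls, where it was higher, and its sign turned with another background correction, as given below with its values. Among the 33 members well above background on all 6 arrays, which leaves out Papss2, 26 stood below control, 4 of them at an unadjusted p under 0.05 and 7 with every knock-out below every control.

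Each interval covers 1 member under the main processing, and does not cover a change of scaling or background correction. For 32 of 34 the 95% interval lay inside a 2-fold change in either direction, as it did for 93.3% of all genes. The exceptions were Gfap and Fabp7. For 28 of 34 it lay inside 1.5-fold, against 79.4% of all genes. The median SD between arrays of a group was 0.16 on the log2 scale over the members.

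**Figure D1:**
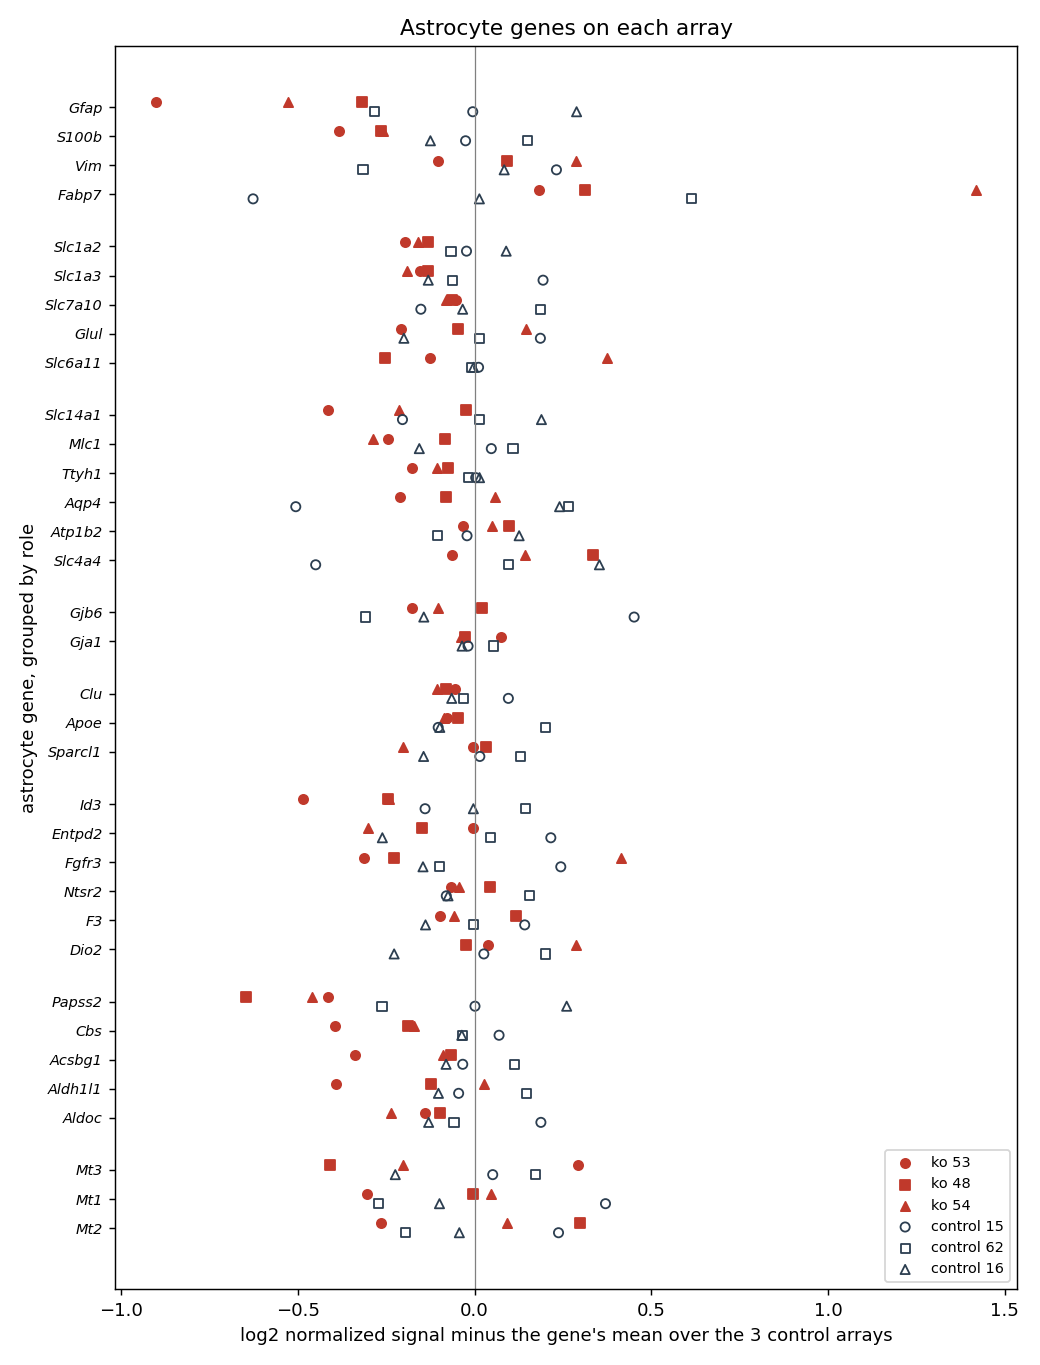
Signal of the 34 astrocyte genes on each array, as log2 distance from the gene's control mean (horizontal), with genes grouped by role (vertical). Filled red marks are the 3 knock-out arrays and open dark marks the 3 control arrays. For Gfap the 3 knock-out marks lie left of the 3 control marks, and for Fabp7 knock-out 54 lies far to the right, 3.77 against a control mean of 2.35 in normalized log2 signal.

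Cytoskeletal and cytosolic markers gave the widest range of the 34. Gfap, the intermediate filament protein that rises when astrocytes react to injury, read 0.38, 0.96 and 0.76 in knock-outs 53, 48 and 54, against 1.28, 0.999 and 1.57 in controls 15, 62 and 16. All 3 knock-outs were below all 3 controls, with knock-out 53 the lowest and control 16 the highest. The difference was -0.58 (95% interval -1.05 to -0.11, limma adjusted p = 0.525). S100b, a calcium-binding protein, read 5.42, 5.54 and 5.55 in the knock-outs, against 5.78, 5.96 and 5.68 in the controls, again without overlap, and differed by -0.30 (95% interval -0.54 to -0.068, limma adjusted p = 0.516). Vim, the other filament protein of reactive astrocytes, did not follow Gfap: it read 1.34, 1.53 and 1.73 in the knock-outs, against 1.67, 1.12 and 1.52 in the controls, the groups overlapped, and the difference was 0.092 (95% interval -0.31 to 0.50, limma adjusted p = 0.944). Fabp7, a fatty-acid-binding protein of radial glia and young astrocytes, read 2.53, 2.67 and 3.77 in knock-outs 53, 48 and 54, against 1.73, 2.97 and 2.37 in controls 15, 62 and 16. Knock-out 54 stood far above the other 5 arrays and control 15 far below, and the difference of 0.64 (95% interval -0.37 to 1.64, limma adjusted p = 0.792) was 0.25 without knock-out 54 and 0.32 without control 15.

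The lower Gfap signal rested mainly on its brightest probe. Of the other Gfap probes, the brighter read -1.67, -1.10 and -1.23 in the knock-outs, against -1.15, -1.57 and -0.91 in the controls and differed by -0.12 (limma adjusted p = 0.942). The dimmest read -2.70, -2.30 and -2.44 in the knock-outs, against -2.45, -2.65 and -1.93 in the controls and differed by -0.14 (limma adjusted p = 0.929). All 3 probes put knock-out 53 lowest and control 16 highest. In both dimmer probes controls 15 and 62 fell among the knock-outs, and only control 16 stood above them. The brightest probe's difference was -0.42 within slide 1 and -0.90 within slide 2, and it lay between -0.72 and -0.42 as single arrays were left out. With the mean over the 3 probes in place of the brightest, the Gfap difference was -0.28.

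**Figure D2:**
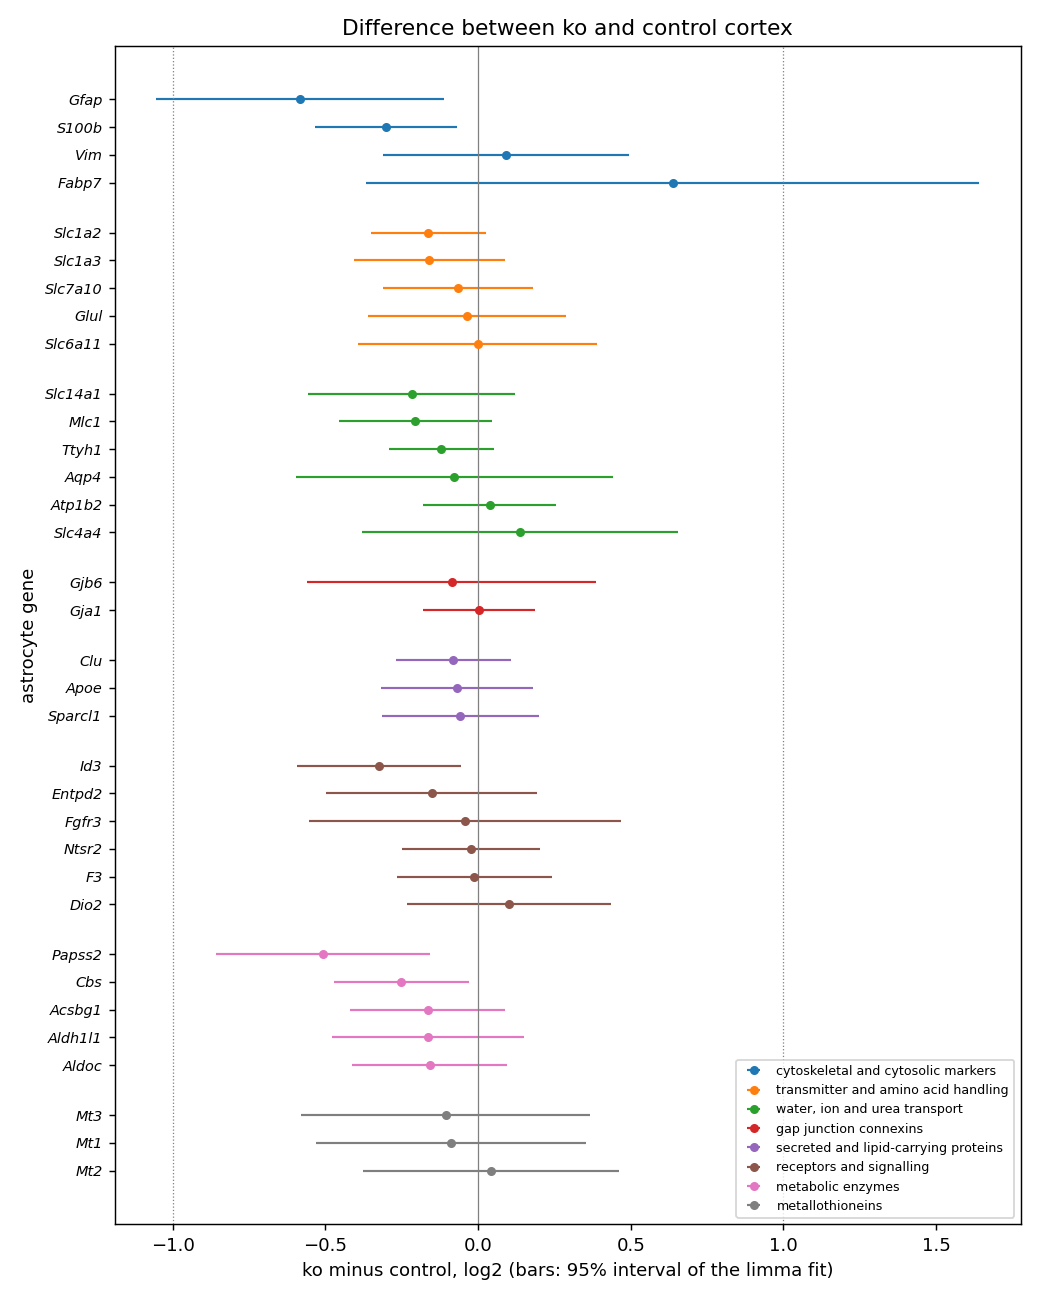
Difference between knock-out and control for each astrocyte gene (log2, horizontal; point, fitted value; bar, 95% interval of the limma fit; n = 3 arrays per group), coloured by role, with dotted lines at a 2-fold change. Bars of Gfap and Fabp7 cross a dotted line, and most points lie between 0 and the value of -0.30 for S100b.

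Genes for the handling of transmitters and amino acids were all below control, 5 of 5, by small amounts. For Slc6a11 the amount was only -0.0014. Leaving the within-slide values aside, the sign turned in 7 alternatives for Slc6a11 and in 5 for Glul. Within slide 1 Slc6a11 also turned, to 0.050, and within slide 2 it stood at -0.12. The main glutamate transporter of adult astrocytes, Slc1a2 (GLT-1), read 2.61, 2.67 and 2.64 in knock-outs 53, 48 and 54, against 2.78, 2.74 and 2.89 in controls 15, 62 and 16. Its groups did not overlap, and the difference was -0.16 (95% interval -0.35 to 0.025, limma adjusted p = 0.688). A dimmer Slc1a2 probe read -1.01, -1.20 and -0.92 in the knock-outs, against -0.56, -0.71 and -1.04 in the controls, with control 16 inside the range of the knock-outs, and differed by -0.27. A probe that the array names 2900019G14Rik and the RefSeq table assigns to Slc1a2 lay outside the naming rule. It read 5.86, 5.72 and 5.52 in the knock-outs, against 5.91, 5.86 and 5.70 in the controls. The groups overlapped on that probe, and it differed by -0.12 (limma adjusted p = 0.860). Slc1a3 (GLAST), the second glutamate transporter of astrocytes, read 4.21, 4.24 and 4.18 in the knock-outs, against 4.56, 4.31 and 4.24 in the controls. Only a small gap parted the highest knock-out from control 16, and the difference was -0.16 (95% interval -0.41 to 0.088, limma adjusted p = 0.787). Glul, the glutamine synthetase that closes the glutamate cycle, read 5.27, 5.43 and 5.62 in the knock-outs, against 5.66, 5.49 and 5.28 in the controls, with fully mixed groups and a difference of -0.036 (-0.36 to 0.29). Slc7a10, a transporter of small neutral amino acids such as serine and glycine, differed by -0.065 (-0.31 to 0.18). Its knock-outs lay within 2.02 to 2.04 and its controls within 1.95 to 2.28. Slc6a11 (GAT-3), which takes up GABA, had nearly equal group means, with a difference of -0.0014 (-0.39 to 0.39). Its controls lay at 0.25, 0.23 and 0.23, while its knock-outs spread over 0.11, -0.018 and 0.61, with knock-out 54 the highest.

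Water, ion and urea transport genes had 4 of 6 members below control. Aqp4, the water channel of astrocyte endfeet, read 0.23, 0.36 and 0.50 in knock-outs 53, 48 and 54, against -0.067, 0.70 and 0.68 in controls 15, 62 and 16. Control 15 was the lowest array and controls 62 and 16 the highest, so the knock-outs lay inside the range of the controls, and the difference was -0.078 (95% interval -0.60 to 0.44, limma adjusted p = 0.966). The other Aqp4 probes, at -0.0023 and 0.0015, also put control 15 lowest. Slc4a4, a sodium bicarbonate cotransporter, had the same low array by its brightest probe: it read -3.22, -2.82 and -3.02 in the knock-outs, against -3.61, -3.06 and -2.80 in the controls and differed by 0.14 (-0.38 to 0.65). Its dimmer probes, at 0.062 and 0.22, did not put control 15 lowest. Mlc1, a membrane protein of astrocyte junctions at vessels, read 4.64, 4.80 and 4.60 in the knock-outs, against 4.93, 5.0 and 4.73 in the controls. Control 16 lay below knock-out 48, and the difference was -0.20 (95% interval -0.45 to 0.044, limma adjusted p = 0.710). Slc14a1, a urea transporter, read 0.53, 0.92 and 0.73 in the knock-outs, against 0.74, 0.95 and 1.13 in the controls and differed by -0.22 (-0.56 to 0.12). Atp1b2, a beta subunit of the sodium pump that also acts in adhesion, differed by 0.038 (-0.18 to 0.26).

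Ttyh1, a chloride channel family member, had 5 tested probes, more than any other member. The brightest read 4.07, 4.17 and 4.14 in the knock-outs, against 4.25, 4.23 and 4.26 in the controls, with a small gap and no overlap between groups, and differed by -0.12 (95% interval -0.29 to 0.052, limma adjusted p = 0.765). A dimmer probe read -2.56, -2.56 and -2.69 in the knock-outs, against -1.81, -2.32 and -2.33 in the controls, also without overlap, and differed by -0.45 (limma adjusted p = 0.536). The dimmest differed by -0.79. It cleared the background flag in 1 of 3 knock-outs and 3 of 3 controls, and so entered the test through the controls. Another probe leaned the other way, at 0.062.

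The gap junction connexins stood on either side of 0. Gja1 (connexin 43) was among the steadiest members, at 1.21, 1.11 and 1.09 in the knock-outs, against 1.11, 1.19 and 1.10 in the controls, and its difference was 0.0026 (-0.18 to 0.19). Gjb6 (connexin 30) read 3.14, 3.34 and 3.22 in the knock-outs, against 3.77, 3.01 and 3.18 in the controls, with control 15 highest, and differed by -0.086 (-0.56 to 0.39). Its second probe stood at -0.11.

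Secreted proteins of astrocytes were slightly below control in 3 of 3. Apoe, the lipid carrier of the brain, read 7.50, 7.53 and 7.49 in the knock-outs, against 7.47, 7.78 and 7.48 in the controls. The knock-outs lay close together, and apart from control 62 the controls lay beside them, so that the difference was -0.070 (-0.32 to 0.18). Clu (clusterin), a chaperone and lipid carrier, read 5.87, 5.84 and 5.82 in the knock-outs, against 6.02, 5.89 and 5.86 in the controls and differed by -0.081 (-0.27 to 0.11). Sparcl1 (hevin), which promotes synapse formation, differed by -0.058 (-0.32 to 0.20), with a second probe at -0.033. For these 3 genes the 95% interval lay inside 1.5-fold.

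Among receptors and signalling genes 5 of 6 were below control, and only Id3 showed separate groups. Id3, an inhibitor of basic helix-loop-helix factors that responds to BMP signals, read 0.95, 1.19 and 1.19 in knock-outs 53, 48 and 54, against 1.30, 1.58 and 1.43 in controls 15, 62 and 16. Knock-out 53 was the lowest, and the difference was -0.32 (95% interval -0.59 to -0.054, limma adjusted p = 0.547). It was -0.10 within slide 1 and -0.55 within slide 2. The fibroblast growth factor receptor Fgfr3 read 1.899, 1.98 and 2.63 in the knock-outs, against 2.46, 2.11 and 2.07 in the controls, with knock-out 54 the highest array, and differed by -0.042 (-0.55 to 0.47). Its dimmest probe went against that array: knock-out 54 was lowest there, at -4.78, against -3.06 and -3.26 in the other knock-outs and -3.31, -3.36 and -3.30 in the controls. Dio2, the deiodinase with which astrocytes activate thyroid hormone, differed by 0.10 (-0.23 to 0.43), and Entpd2, an ectonucleotidase that breaks down extracellular ATP, by -0.15 (-0.50 to 0.19). Ntsr2, a neurotensin receptor, differed by -0.022 (-0.25 to 0.20), and F3, tissue factor, which starts blood clotting, by -0.013 (-0.27 to 0.24).

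All 5 metabolic enzymes were below control, with a median of -0.16. Cbs, the cystathionine beta-synthase, which starts the conversion of homocysteine to cysteine, read -0.84, -0.64 and -0.62 in knock-outs 53, 48 and 54, against -0.38, -0.48 and -0.48 in controls 15, 62 and 16. The controls lay close together above every knock-out, and the difference was -0.25 (95% interval -0.47 to -0.031, limma adjusted p = 0.576). Papss2, which makes the sulfate donor for sulfation, read -5.37, -5.60 and -5.42 in the knock-outs, against -4.96, -5.22 and -4.70 in the controls and differed by -0.51 (95% interval -0.86 to -0.16, limma adjusted p = 0.457). Papss2 cleared the background flag in 1 of 3 knock-outs and 3 of 3 controls, so it entered the test through the controls, and with normexp background correction its difference was 0.45. Aldh1l1, a folate enzyme widely used to mark all astrocytes, read 2.14, 2.41 and 2.56 in the knock-outs, against 2.49, 2.68 and 2.43 in the controls. The groups overlapped, with knock-out 53 lowest, and the difference was -0.16 (95% interval -0.48 to 0.15, limma adjusted p = 0.837). Aldoc (zebrin II), a glycolytic aldolase, differed by -0.16 (-0.41 to 0.095), and its second probe by -0.23. Acsbg1, an acyl-CoA synthetase for long-chain fatty acids, differed by -0.16 (-0.42 to 0.089).

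Metallothioneins are small cysteine-rich proteins that bind zinc and copper. Mt1 and Mt2 are induced together by metals, through the factor MTF-1, and by glucocorticoids, whereas Mt3 is the constitutive brain form. By their brightest probes Mt1 and Mt2 shared most of an order of arrays, which also split by slide, and Mt3 did not follow it. The bases upstream of the 3 genes are shown, from RefSeq on GRCm38.p6. Each run covers the 250 bases before the annotated start, 5′ to 3′ on the gene's strand, with capitals at matches to TGCNCNC on either strand. With N as any base, this pattern is looser than the core of the metal response element, so a match need not be that core.
Mt1, chr8:94178839-94179088, + strand: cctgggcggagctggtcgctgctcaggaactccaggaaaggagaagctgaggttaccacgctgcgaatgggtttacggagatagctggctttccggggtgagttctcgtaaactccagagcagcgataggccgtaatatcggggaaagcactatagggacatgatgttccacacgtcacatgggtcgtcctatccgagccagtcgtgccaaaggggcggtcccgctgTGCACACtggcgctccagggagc
Mt2, chr8:94172368-94172617, + strand: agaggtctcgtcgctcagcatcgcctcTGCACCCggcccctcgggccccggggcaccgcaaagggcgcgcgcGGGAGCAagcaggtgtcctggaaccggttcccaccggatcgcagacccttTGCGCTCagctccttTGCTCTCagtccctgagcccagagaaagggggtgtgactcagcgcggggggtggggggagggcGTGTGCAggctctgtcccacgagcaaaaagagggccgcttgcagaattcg
Mt3, chr8:94152357-94152606, + strand: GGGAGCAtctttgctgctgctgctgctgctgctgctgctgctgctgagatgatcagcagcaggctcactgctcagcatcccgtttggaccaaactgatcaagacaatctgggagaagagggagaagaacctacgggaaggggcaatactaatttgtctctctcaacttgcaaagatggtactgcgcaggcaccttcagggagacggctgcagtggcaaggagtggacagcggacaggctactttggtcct

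The window of Mt2 held 5 matches, that of Mt1 1 and that of Mt3 1. Bases past the annotated start, or near any other start of these genes, were not searched, and the pattern is looser than the element's core. The matches are therefore no count of the metal response elements of a gene, and do not rank the 3 genes by them. The motif is short and common: 44.4% of 32851 upstream windows of the same length held it at least once, while 1.28% held 4 or more matches. On the arrays Mt1 read 4.33, 4.62 and 4.67 in knock-outs 53, 48 and 54, against 5.0, 4.36 and 4.53 in controls 15, 62 and 16. Mt2 read 5.63, 6.19 and 5.98 in the knock-outs, against 6.13, 5.70 and 5.85 in the controls. For both, knock-out 53 was lowest, then control 62, then control 16. The other 3 arrays were above them, so the order crossed the groups. The lower 3 arrays were those of slide 2 and the upper 3 those of slide 1. With slide as a block in limma the difference was -0.23 for Mt1 and -0.094 for Mt2. The cause of the shared order was not tested. A dimmer Mt1 probe kept control 15 highest but put control 16 lowest, and differed by -0.12. Mt3 ran differently, at 3.101, 2.40 and 2.61 in the knock-outs, against 2.86, 2.98 and 2.58 in the controls, with knock-out 53 the highest. The differences were -0.088 (-0.53 to 0.35) for Mt1, 0.042 (-0.38 to 0.46) for Mt2 and -0.11 (-0.58 to 0.37) for Mt3, none past the threshold in limma.

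Probes of the same gene were mostly close. Of 16 members with several tested probes, 15 had all their differences within 0.5 of each other, Ttyh1 being the exception, and the median range was 0.088. In 12 of them all probes had 1 sign, lower in 11. Over all 57 tested member probes 44 were below control, against 50.1% of all probes, and 6 reached an unadjusted p under 0.05 on the lower side, against 4.07% of all probes. Of these 6, 5 were well above background on all 6 arrays, the exception being that of Papss2. The 4 probes left out were dim ones of Vim, Papss2, Slc1a2 and Slc1a3.

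**Figure D3:**
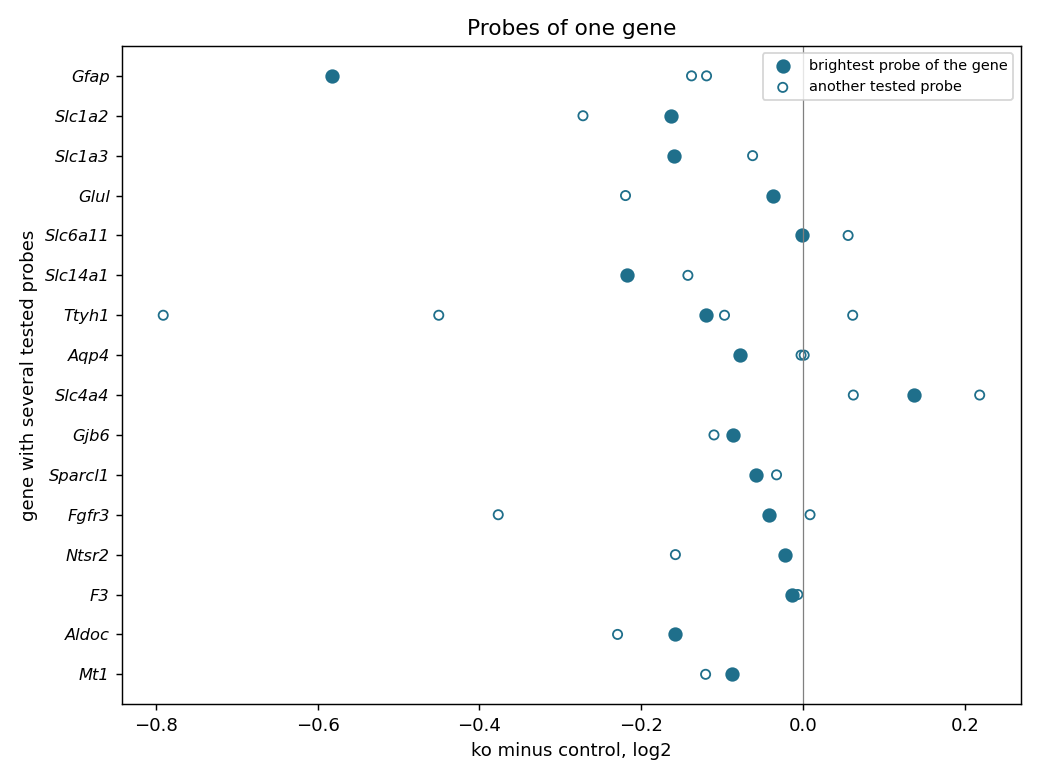
Difference between knock-out and control (log2, horizontal) for every tested probe of the 16 astrocyte genes with several tested probes (vertical). Filled marks are the brightest probe of the gene. The probes of Gfap range from -0.58 to -0.12, and those of Ttyh1 from -0.79 to 0.062.

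The arrays did not share the lower values equally. With each gene centred on its mean of 6 arrays and then averaged over the 34 genes, the members stood at log2 values of -0.14, -0.026 and 0.022 on knock-out arrays 53, 48 and 54, against 0.057, 0.067 and 0.016 on control arrays 15, 62 and 16. Knock-out 53 was the lowest. Knock-out 54 lay above control 16, so the groups overlapped over all 34 genes. Fabp7, far higher on knock-out 54 than on any other array, was also left out, a choice made after its values were seen. Over the other 33 genes the means were -0.14, -0.026 and -0.010 on the knock-out arrays, against 0.087, 0.060 and 0.026 on the control arrays. All 3 knock-outs were then below all 3 controls, but this order depends on that choice. No gene on the lower side was left out in the same way. Knock-out 53 was the lowest of the 6 arrays for 13 members, knock-out 54 for 7 and knock-out 48 for 3, against 6, 3 and 2 for controls 15, 62 and 16. Without knock-out 53 the count below control was 22 of 34, and 1 member was lower at an unadjusted p under 0.05. Without control 62 that last count was 2.

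The 6 arrays lay on 2 slides, knock-outs 48 and 54 with control 15 on slide 1 and knock-out 53 with controls 62 and 16 on slide 2. The members' median was -0.10 within slide 1, with 24 of 34 below control, and -0.13 within slide 2, with 27 of 34. Genes below control on both slides numbered 18, and 15 had opposite signs. The largest contrasts were Fabp7, at 1.49 within slide 1 and -0.13 within slide 2, Slc4a4, at 0.69 within slide 1 and -0.29 within slide 2, and Aqp4, at 0.49 within slide 1 and -0.46 within slide 2, all genes whose brightest probe was lowest on control 15. Mt3 ran the other way, at -0.36 within slide 1 and 0.32 within slide 2. With slide as a block in limma 0 of 34 members passed, where 0.0584% of all genes did. The same 5 genes, Gfap, S100b, Cbs, Papss2 and Id3, were then lower at an unadjusted p under 0.05, against 4.63% of all genes, with the lowest limma adjusted p at 0.478. Papss2 is among them although it entered only through the controls, and without it there were 4.

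**Figure D4:**
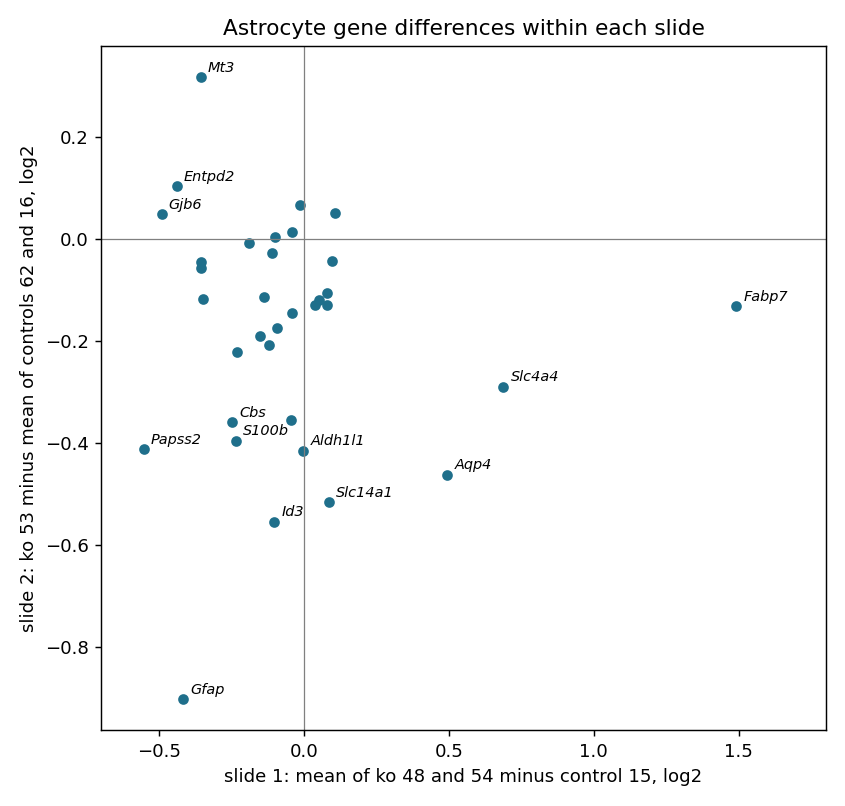
Difference between knock-out and control for the 34 astrocyte genes within slide 1 (horizontal) and within slide 2 (vertical), log2, 1 point per gene. The 18 genes in the lower left are below control on both slides, with Gfap lowest, while Fabp7, Slc4a4 and Aqp4 lie at the right, above control on slide 1 and below on slide 2.

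Of 35 further astrocyte genes 34 were tested, with 21 of 34 below control (median -0.064), and 0 passed in limma in either direction, while 4 were lower and 0 higher at an unadjusted p under 0.05, against 4.38% and 3.89% of all genes. Id4, a relative of Id3, averaged 2.40 ± 0.093 in knock-outs and 2.87 ± 0.22 in controls (SD, n = 3 each), without overlap, and differed by -0.47 (95% interval -0.77 to -0.17, limma adjusted p = 0.397). The heparan sulfate proteoglycan Sdc4 differed by -0.56 (95% interval -1.04 to -0.072, limma adjusted p = 0.572), and Itih3, a hyaluronan-binding inhibitor chain, by -0.41 (95% interval -0.78 to -0.046, limma adjusted p = 0.579). Etnppl, a phospholyase of adult astrocytes, averaged 0.97 ± 0.53 in knock-outs and 2.08 ± 0.83 in controls, with a difference of -1.12 (95% interval -2.19 to -0.045, limma adjusted p = 0.611). The potassium channel Kcnj10 stood at 0.072, and it is named outside the fixed rule as a partner of Aqp4.

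Genes that astrocytes express when reactive lay on both sides of control. Of 33 such genes 26 were tested, with 17 of 26 below control (median -0.080), and 0 passed in limma, with 0 lower and 1 higher at an unadjusted p under 0.05, against 4.38% and 3.89% of all genes. The marker Lcn2 was among the 7 too dim to test. Serpina3n, a protease inhibitor of reactive astrocytes, averaged 0.0085 ± 0.88 in knock-outs and -1.15 ± 0.40 in controls, with overlapping groups and a difference of 1.16 (95% interval 0.11 to 2.21, limma adjusted p = 0.586). Osmr, the oncostatin M receptor, differed by -0.70 (95% interval -1.46 to 0.063, limma adjusted p = 0.657), Psmb8, an immunoproteasome subunit, by -0.30 and Sphk1, a sphingosine kinase, by 0.25.

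Transcription factors that specify astrocytes had 10 of 15 below control (median -0.077), with 0 past the threshold in limma and 0 at an unadjusted p under 0.05, against 8.27% of all genes. Id1 stood at -0.28, Sox8 at -0.27, Sox2 at 0.25 and Stat3, an activator of Gfap, at -0.13. Partners in the glutamate and glutamine cycle had 9 of 16 below control (median -0.027), also with 0 past the threshold in limma and 0 at an unadjusted p under 0.05. The neuronal glutamate transporter Slc1a1 stood at 0.13 and the liver-type glutaminase Gls2 at 0.096, both higher on every knock-out array than on any control, as were 6.38% of all genes. The vesicular transporter Slc17a8 stood at 0.18 and the neutral amino acid transporter Slc1a4 at -0.12.

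Genes of metal and thyroid hormone handling, the partners of the metallothioneins and of Dio2, had 7 of 12 below control (median -0.083). Of 12 tested 0 passed in limma, while 2 were lower and 2 higher at an unadjusted p under 0.05, against 4.38% and 3.89% of all genes. These 4 had separate groups, as did 13.6% of all genes. Mtf1, the factor that drives Mt1 and Mt2, averaged -0.28 ± 0.057 in knock-outs and -0.028 ± 0.055 in controls and differed by -0.25 (95% interval -0.43 to -0.066, limma adjusted p = 0.496), while Mt1 and Mt2 differed by -0.088 and 0.042. Hr, a corepressor that thyroid hormone induces in brain, averaged -3.51 ± 0.21 in knock-outs and -4.08 ± 0.050 in controls and differed by 0.56 (95% interval 0.28 to 0.85, limma adjusted p = 0.259). Thra, the main thyroid hormone receptor of brain, differed by -0.22 (95% interval -0.41 to -0.040, limma adjusted p = 0.539), and Slc30a3, which loads zinc into synaptic vesicles, by 0.31 (95% interval 0.063 to 0.55, limma adjusted p = 0.521).

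Markers of other cells were set beside the astrocyte genes. Microglial markers were below control in 16 of 16 (median -0.39), 13 of them at an unadjusted p under 0.05, against 4.38% of all genes, and their summed linear signal was 61.8 to 65 in knock-outs, against 76.2 to 97.5 in controls. Striatal markers, of tissue next to the cortex, were below control in 12 of 12 on the array (median -0.47), 4 of them at an unadjusted p under 0.05, with a summed signal of 59.7 to 72.3 in knock-outs, against 63.1 to 113 in controls. The 34 astrocyte genes had a summed signal of 881 to 939 in knock-outs, against 886 to 1003 in controls, so these sums overlapped. The 3 secreted genes alone gave 439 to 481 of it in knock-outs and 448 to 534 in controls. The sum thus rests largely on a few bright probes and says little about the other members. Control 16, the highest array for Gfap, was also the highest for microglial markers, at 0.40 as mean log2 deviation. Knock-out 53, the lowest for Gfap, was the lowest for striatal markers, at -0.37. Over microglial markers every knock-out lay below every control, as for the brightest Gfap probe. The means were -0.20, -0.26 and -0.21 on knock-outs 53, 48 and 54, against 0.17, 0.094 and 0.40 on controls 15, 62 and 16. Over striatal markers control 16, at -0.19, lay among the knock-outs, and controls 15 and 62, at 0.47 and 0.46, above them. The part of microglial or striatal RNA in the astrocyte values was not tested.

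Markers of neurons had 5 of 13 below control (median 0.024) and a summed signal of 287 to 302 in knock-outs, against 288 to 299 in controls. Those of the oligodendrocyte lineage had 8 of 15 below control (median -0.010), and those of vessel cells 7 of 14 below control (median 0.0037). Meninges and choroid plexus markers had 4 of 11 below control (median 0.036) and were lowest on control 15, at -0.47 as mean log2 deviation, the array on which the brightest probes of Aqp4, Slc4a4 and Fabp7 were lowest. Their part in those values was not tested. Radial glia and progenitor markers had 2 of 6 below control (median 0.11), with Eomes and Top2a too dim to test. All markers of the other lists in this paragraph and of microglia were tested, and limma called 0 of any marker list. With unadjusted p under 0.05 there was 1 neuronal marker higher, and 1 vessel marker lower and 1 higher, with 0 in the oligodendrocyte, meninges and radial glia lists.

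**Figure D5:**
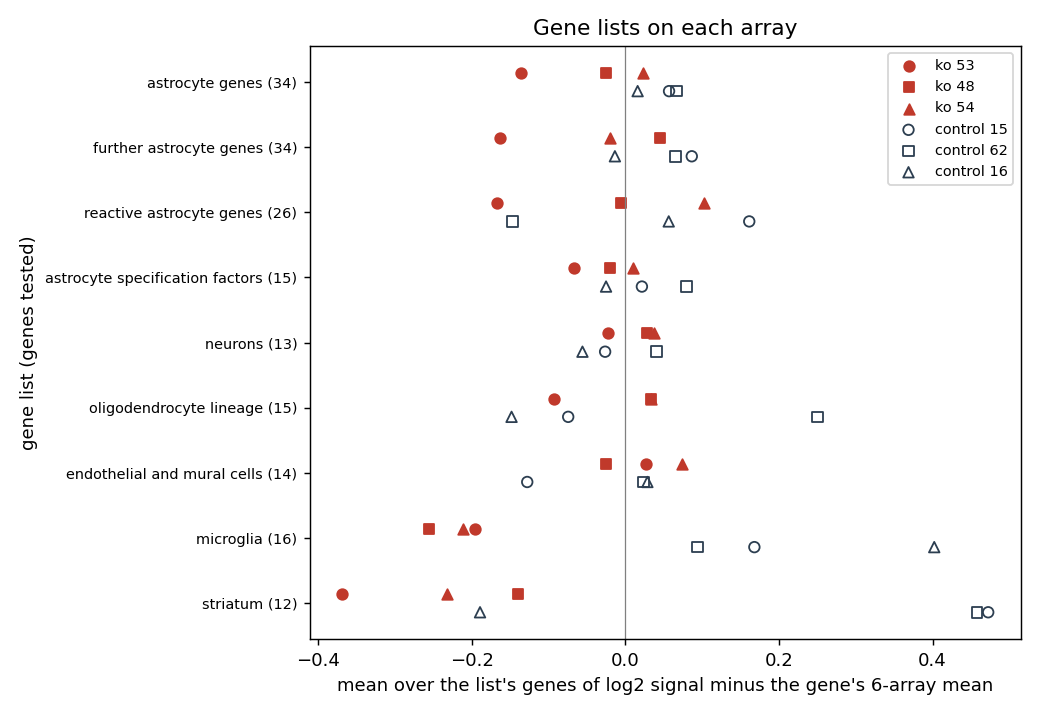
Mean over each list's genes of log2 signal minus the gene's mean over the 6 arrays (horizontal), for astrocyte lists and for markers of other cells (vertical, with the number of genes tested). Filled red marks are knock-out arrays and open dark marks control arrays. Astrocyte genes stay between -0.14 and 0.067, while microglial markers run from -0.26 to 0.40 with the groups apart.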

How the data were processed

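RNA of 3 knock-out and 3 control cortex samples was read on 6 1-colour arrays, grouped by sample title. Per the file headers, Agilent Feature Extraction 9.1.3.1 made the processed signal, an intensity that is background-subtracted and detrended within the array. The flags for outlier, saturated and well-above-background spots are other values set by the same software, per the file headers. A table of log2 values from the authors was deposited too. Its columns share 1 median, 6.75, which quantile normalization gives but other scalings can give too. Whether that table was centred, and the genome build of the probe annotation, are not given in the sources used here.

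Control spots (1639 of 45018 an array) and 120 outlier values were left out, and spots of a probe were averaged. The log2 processed signal was scaled by subtracting the 75th percentile within an array. Testing was limited to probes that cleared the background flag in all 3 samples of a group. Members were matched by the array's own gene name, and genes of other lists through RefSeq names of GRCm38.p6 (22951 probes by accession, 6659 by symbol, 3109 by synonym). Promoter windows were found for 29 of the 32 members outside chromosome 18, and only those of the metallothioneins are shown. Motif matches are descriptions of the letters.

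The test was limma 3.58.1 (lmFit, eBayes; R 4.3.3), and p-values were adjusted by Benjamini and Hochberg's method over 25507 probes. As no label ties samples to separate mice, p-values cover only the spread seen among these arrays, whose number limits the precision. The fit was checked on simulated data. All 34 members may be named, and of the other lists up to 4 genes of lowest p. The members and lists were chosen with earlier results of these data known. Alternatives changed the scaling, the background correction, the filter, the variance model, the array weights, the slide term, the probe for a gene, the source of the values and the arrays left out. Plots used Python 3.11.15 and matplotlib 3.10.9.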

Additional observations from a re-analysis of the deposited data

How the results depend on the processing

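No paired analysis was possible because the sample numbers in the titles differ between the groups. No astrocyte member and no gene of the partner lists passed the threshold in limma in any alternative with a test (the within-slide values have none), with adjusted p of a member at least 0.278. Probes past the threshold over the whole array, 33 in all, numbered 0 with normexp background correction, 2 without a filter, 3 with at least 1 bright array and 15 with slide as a block, and from 2 (without control 16) to 60 (without knock-out 53) as arrays were left out. Leaving scaling out moved the median of all genes by 0.17, which put 7 members below control, 0 of them at an unadjusted p under 0.05, and the members' median at 0.091. Relative to the median of all genes it stayed at -0.078, and over the 19 alternatives that relative median lay between -0.20 and -0.063, with 22 to 31 members below the median of all genes. Normexp gave a members' median of -0.16 and 1 member lower at an unadjusted p under 0.05. As arrays were left out the members' median lay between -0.12 and -0.063, the count below control between 22 and 28 and that at an unadjusted p under 0.05 between 1 and 5. Medians of the partner lists without scaling were 0.11 (further astrocyte genes), 0.094 (reactive), 0.15 (glutamate cycle), 0.092 (metal and thyroid) and 0.098 (specification), and with normexp 0.13 (reactive) and 0.11 (metal and thyroid). Within slide 1 they were 0.031 (further), 0.015 (glutamate), -0.0039 (metal) and -0.035 (specification). The glutamate median was -0.064 with median scaling, -0.0052 with quantile normalization, -0.0072 in the authors' deposited values and 0.0021 with the mean over probes, and the metal median was -0.037 with slide as a block and -0.032 with the mean over probes. As arrays were left out these medians lay from -0.094 to 0.0028 (further), -0.15 to 0.024 (reactive), -0.041 to 0.0053 (glutamate), -0.12 to -0.028 (metal) and -0.093 to -0.037 (specification). Some members took the other sign under some settings. Without scaling, which added 0.17 to the difference of each of the 34 members alike, these were Slc1a2 (0.012), Slc1a3 (0.015), Slc6a11 (0.17), Slc7a10 (0.11), Glul (0.14), Aqp4 (0.097), Ttyh1 (0.055), Gjb6 (0.088), Sparcl1 (0.12), Clu (0.094), Apoe (0.10), Fgfr3 (0.13), Ntsr2 (0.15), F3 (0.16), Entpd2 (0.023), Aldh1l1 (0.012), Aldoc (0.016), Acsbg1 (0.0100), Mt1 (0.087) and Mt3 (0.068). The sign also changed with slide as a block (Vim -0.015, Aqp4 0.016 and Mt2 -0.094), with slide as a random block (Slc6a11 0.0079, Gja1 -0.0036 and F3 0.0027), with the mean over probes (Slc6a11 0.027), with the second-brightest probe (Slc6a11 0.056, Aqp4 0.0015, Ttyh1 0.062 and Fgfr3 0.0088), with quantile normalization (Glul 0.0076 and F3 0.0079), with the authors' deposited values (Glul 0.0039 and F3 0.0041), with normexp (Atp1b2 -0.044, Gja1 -0.052, Papss2 0.45 and Mt2 -0.037), with median scaling (Gja1 -0.034) and with array weights (Gja1 -0.0051, Gjb6 0.018 and F3 0.025). As arrays were left out the sign changed for Vim (-0.066 to 0.21), Slc6a11 (-0.19 to 0.12), Slc7a10 (-0.14 to 0.027), Glul (-0.14 to 0.057), Aqp4 (-0.33 to 0.055), Slc4a4 (-0.088 to 0.31), Atp1b2 (-0.014 to 0.10), Gja1 (-0.034 to 0.029), Gjb6 (-0.24 to 0.14), Sparcl1 (-0.13 to 0.013), Apoe (-0.12 to 0.031), Fgfr3 (-0.27 to 0.093), Ntsr2 (-0.062 to 0.056), F3 (-0.082 to 0.058), Dio2 (-0.013 to 0.20), Mt1 (-0.22 to 0.097), Mt2 (-0.086 to 0.20) and Mt3 (-0.31 to 0.046). Apart from the shift without scaling, the cause of these changes was not tested. Signal over background limits Papss2 and the dimmest Ttyh1 probe, which cleared the background flag in 1 of 3 knock-outs, and 3 arrays a group leave the intervals of Gfap and Fabp7 reaching past a 2-fold change.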
